A study of Mus musculus with 12 samples.

Results

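The genes described here encode the Fos and Jun subunits of the transcription factor AP-1: Fos, Fosb, Fosl1, Fosl2, Jun, Junb and Jund. They were taken by symbol, as 7 of the 22899 genes in a deposited table of read counts. RNA was sequenced from primary neurons of C57Bl6 mice in 12 libraries, 3 in each of 4 groups. In the OGD group the neurons underwent oxygen-glucose deprivation, a culture model of ischaemia, and in the OGD control group they had no treatment. In the KA group kainic acid, which activates glutamate receptors of the kainate and AMPA classes, was in the culture medium at 100 µM (the labels spell it Kainac acid), and the KA control group again had no treatment. All groups share the strain and the labelled cell type. The sources used here do not give the brain region, the age of the animals or the length of exposure or recovery. Nothing says that replicates were separate cultures, so a p-value covers the spread among these 12 libraries, and that spread may be technical.

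AP-1 is a pair of proteins of the basic leucine zipper class. Jun proteins can pair with each other or with a Fos protein, whereas Fos proteins need a Jun partner, and the pair binds DNA sites called TRE and, in some combinations, CRE. In neurons calcium entry and MAP kinase signalling switch on Fos, Fosb and Junb within minutes without new protein synthesis, which is why they are called immediate early genes. Fosl2 and Jund are known for steadier expression, and Jun is also known for its activation by JNK kinases in stressed neurons.

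The promoters of Fos, Fosb, Jun and Junb are shown because these 4 subunit genes are the ones best known for rapid induction in neurons. Each sequence runs 5′ to 3′ on the strand of its gene, from 130 to 11 bases upstream of the RefSeq start (GRCm38.p6), and overlaps no annotated exon. Capitals mark 3 kinds of letters, searched on both strands. The letters TGACG are the core of a CRE. The TRE-like site described for the Jun promoter reads TGACATCA. A TATA box is marked where the window reads TATAAA. The searches for the CRE core and the TRE-like site were added after the sequences had been seen.
Fos (chr12:85473760-85473879, plus strand): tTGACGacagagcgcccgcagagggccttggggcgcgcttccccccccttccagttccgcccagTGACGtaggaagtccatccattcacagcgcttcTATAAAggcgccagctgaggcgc
Fosb (chr7:19310056-19310175, minus strand): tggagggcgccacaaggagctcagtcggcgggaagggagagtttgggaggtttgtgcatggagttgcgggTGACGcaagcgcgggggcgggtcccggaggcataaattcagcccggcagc
Jun (chr4:95052233-95052352, minus strand): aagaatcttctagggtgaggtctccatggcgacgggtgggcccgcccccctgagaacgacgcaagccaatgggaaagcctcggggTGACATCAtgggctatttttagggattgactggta
Junb (chr8:84978759-84978878, minus strand): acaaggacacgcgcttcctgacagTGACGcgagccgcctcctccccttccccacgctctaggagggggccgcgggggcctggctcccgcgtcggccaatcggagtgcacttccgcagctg

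RefSeq windows were found for 6 of the 7 genes, and the 250 bases before the start were searched in each. The CRE core TGACG stood in 3 of the 6 windows, those of Fos, Fosb and Junb, against 17.8% of 32851 promoters in the RefSeq table. In Fos it began 129 and 66 bases upstream, in Fosb 60 and in Junb 106. The full CRE (TGACGTCA, which contains TGACG and was in 1.55% of promoters), the TRE (TGACTCA, 4.46%), TTCCNNNAA (the SIE, 14.3%) and the CArG box (1.47%) were in none of the 6. The TRE-like TGACATCA was in the Jun window (2.93% of promoters), TATAAA in the Fos window (12.4%), and GGGCGG, a GC box, in 4 windows (32.7%). Bases farther upstream were not searched, so letters absent here may stand beyond the window. A match is a description of letters and was not tested for binding. TGACG and TGACATCA were picked after these sequences had been seen. Their matches therefore cannot be weighed against the shares over all promoters.

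Total counts ran from 12873444 to 21142267 per library, and 13139 genes had enough counts to be tested. The neuronal tubulin gene Tubb3 stood between 1570 and 2360 CPM (counts scaled to a common library size by the TMM method) in the 4 group means, whereas Rbfox3, which encodes the nuclear marker NeuN, stayed between 0.26 and 0.52 CPM. Neuron markers (6 genes) summed to 6530 to 6770 CPM in OGD control and 7000 to 7160 in OGD. They summed to 5930 to 5990 CPM in KA control and 6930 to 7500 in KA. Of 5 neuron markers tested, 4 were called lower and 1 higher in KA control than in OGD control, beside 34.2% and 34.5% of all genes. Microglial markers (8 genes) summed to 4.09 to 9.49 CPM and endothelial markers (5 genes) to 2.36 to 6.06 CPM. The microglial gene Itgam had 1 count in all libraries together. Both sums were highest in KA, at 7.48 to 9.49 and 4.57 to 6.06 CPM. In KA control they were 4.33 to 5.26 and 2.36 to 2.98 CPM. After KA, 4 of 5 microglial and 2 of 2 endothelial markers tested were called higher, beside 35.2% of all genes. Inhibitory neuron markers (4 genes) did not move together after KA. From KA control to KA, the mean of Gad1 rose from 452 to 602 CPM and that of Gad2 from 121 to 244. Slc32a1 fell from 94.7 to 77.5 CPM and Dlx1 from 42.6 to 31.1. The sum of these markers, led by Gad1, was 2280 to 2390 CPM in OGD control and 1820 to 1950 in OGD. It was 704 to 716 CPM in KA control and 934 to 974 in KA. Excitatory markers (4 genes) summed to 986 to 1080, 738 to 783, 1010 to 1030 and 1710 to 1880 CPM in the same order. Astrocyte markers (7 genes) summed to 94.1 to 105, 74.7 to 85.8, 56.7 to 58.2 and 157 to 176 CPM. Fibroblast and mural markers (7 genes, led by the collagen gene Col1a1, with Pdgfrb at 0) summed to 18.9 to 21 CPM in OGD control, 14.3 to 16.6 in OGD, 4.77 to 5.42 in KA control and 17.3 to 18.6 in KA. The fibroblast and mural, neuron, inhibitory neuron and astrocyte sums were each lowest in KA control, as the Fos and Jun genes were. Single markers differed from their sum. Tubb3 was highest in KA control, at 2360 CPM against 1570 in OGD control. Of 6 astrocyte markers tested, 3 were called lower and 1 higher in KA control than in OGD control, beside 34.2% and 34.5% of all genes. Slc1a3 led the astrocyte sum, at 45.3 CPM in OGD control and 30.6 in KA control. The excitatory sum, led by Neurod6, was lowest in OGD. Neurod6 (338 CPM) and Tbr1 (172 CPM) were lowest in OGD, but Slc17a6 (71.2 CPM) and Slc17a7 (136 CPM) were lowest in KA control. Of the fibroblast and mural markers tested, 4 of 5 were called lower in KA control than in OGD control, beside 34.2% of all genes. After KA, 4 of 5 were called higher than in KA control, beside 35.2% of all genes. Oligodendrocyte lineage markers (7 genes) stayed between 33.2 and 46 CPM. The part of these differences in the results on Fos and Jun genes was not tested, and in bulk RNA fewer cells of a type cannot be told apart from less RNA per cell.

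After KA, all 6 Fos and Jun genes that could be tested were higher than in KA control, with log2 fold changes from 2.94 (Fosl2) to 6.45 (Fosb). The comparison asks how neurons respond to overstimulation of glutamate receptors. Of all 13139 genes tested, 35.2% were called higher and 37.6% lower in this comparison (edgeR quasi-likelihood test, Benjamini-Hochberg adjusted p under 0.05). The median of the 6 genes was 4.85, beside -0.02 over all genes. Under all alternatives tried, every one of the 6 stayed higher and below the threshold.

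Fos, the founding member of the family and the usual marker of recently active neurons, stood at 72.7, 84.7 and 89.8 CPM in the 3 KA control libraries. In the KA libraries it stood at 2584, 2681 and 2471 CPM. The log2 fold change was 4.97 (SE 0.06, adjusted p = 4.42e-32). Fos lies on chromosome 12 at 85473890 to 85477273 (mm10, plus strand).

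Fosb, whose truncated splice form ΔFosB is a long-lived protein known from chronic stimulation, had the steepest rise of the family. It was at 9.16, 15.3 and 15.6 CPM in KA control and at 1133, 1287 and 1133 CPM in KA. The log2 fold change was 6.45 (SE 0.10, adjusted p = 4.22e-30), the 4th highest of the 13139 genes. RefSeq lists 2 curated Fosb transcripts, and counts per gene symbol do not separate full-length Fosb from its truncated form. Fosb lies on chromosome 7 at 19302696 to 19310051.

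Fosl2, which encodes Fra-2, was already abundant without treatment and rose least. It went from 414, 427 and 441 CPM in KA control to 3272, 3296 and 3236 CPM in KA (log2 fold change 2.94, SE 0.04, adjusted p = 2.67e-30). Its relative spread was the smallest of the 6 genes in KA, 3268 ± 30.4 CPM (SD, n = 3). Fosl2 lies on chromosome 5 at 32135801 to 32157842.

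Fosl1, which encodes Fra-1, was close to the counting floor. KA control held 1, 3 and 3 reads and KA held 46, 79 and 54 reads, or 4.21 ± 0.43 CPM (SD, n = 3). The ratio of pooled counts, scaled for library size, was 36.7 (exact 95% interval 17.5 to 92.7, counting error only). The edgeR test gave adjusted p = 7.90e-15, but its fold change depends on the small constant added to such low counts. Fosl1 lies on chromosome 19 at 5447547 to 5455946, and 1163 of its 2033 exonic bases are shared with Ccdc85b on the other strand. Strand is not marked by the kit used, and reads in the shared stretch could belong to either gene of the pair.

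Jun, the target of JNK kinases, stood at 47.4, 57.9 and 54.4 CPM in KA control and at 758, 892 and 738 CPM in KA. Junb, which can restrain Jun activity, went from 20.1, 25.3 and 24.8 CPM to 615, 685 and 582 CPM. The log2 fold change of Jun was 3.90 (SE 0.07, adjusted p = 8.87e-28), and that of Junb was 4.74 (SE 0.07, adjusted p = 4.22e-30). Jun lies on chromosome 4 at 95049034 to 95052222 and shares 232 exonic bases with the antisense RNA Junos. Junb lies on chromosome 8 at 84974484 to 84978718 and shares 173 with Prdx2, also on the other strand.

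**Figure D1:**
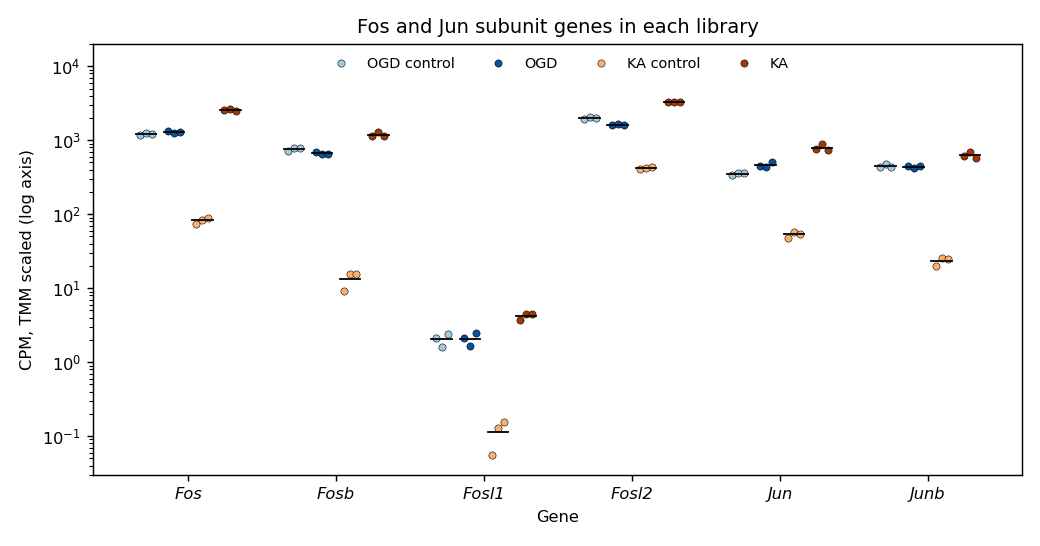
TMM-scaled CPM (log axis) of the 6 counted Fos and Jun genes in each of the 12 libraries, with points for libraries and short lines for the mean of 3. For each gene the KA control libraries lie lowest and the KA libraries highest, while OGD and OGD control lie near each other, as for Fos at 1304 and 1215 CPM.

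The 2 untreated groups also differed. All 6 genes tested were lower in KA control than in OGD control, from -2.22 (Fosl2) to -5.82 (Fosb) on the log2 scale, with a median of -3.97 beside 0.00348 over all genes. Across all genes tested, 34.5% were called higher and 34.2% lower in KA control. Fos was at 1192, 1245 and 1207 CPM in OGD control, more than in any KA control library (log2 fold change -3.88, SE 0.06, adjusted p = 3.39e-29). Fosb was at 712, 792 and 791 CPM in OGD control (-5.82, SE 0.10, adjusted p = 1.80e-28).

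Fosl2 stood at 1911, 2058 and 1994 CPM in OGD control (KA control against it: log2 difference -2.22, SE 0.04). Jun stood at 335, 366 and 364 CPM (-2.73, SE 0.07) and Junb at 435, 473 and 440 CPM (-4.26, SE 0.07). These 3 genes had adjusted p = 2.55e-27, 7.75e-24 and 1.80e-28. For Fosl1 the pooled counts were 94 in OGD control and 7 in KA control, a ratio of 17.6 (exact 95% interval 8.23 to 45). The 2 control groups belong to different experiments and the labels name no difference in their handling, so the experiment and the state of its cells cannot be told apart.

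OGD, set against its own control, changed the family little, and its members went in different directions. Jun was the 1 gene of 6 called higher, Fosl2 and Fosb were called lower, and Fos, Fosl1 and Junb did not pass the test. Across all genes tested, 17.6% were called higher and 20.5% lower after OGD. The median over the 6 genes was -0.01 and over all genes 0.01.

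Jun stood at 446, 440 and 506 CPM in OGD, above each of the 3 OGD control libraries at 335 to 366 CPM. Its log2 fold change was 0.39 (SE 0.06, adjusted p = 1.71e-05), a 1.31-fold rise, and 20.4% of genes tested changed more in either direction. Fosl2 stood at 1602, 1665 and 1622 CPM in OGD, below each OGD control library, and fell by 0.29 on the log2 scale (SE 0.04, adjusted p = 1.20e-06). Both calls held under all alternatives tried.

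Fosb stood at 694, 647 and 660 CPM in OGD, below the lowest OGD control library at 712 CPM. It fell by 0.20 on the log2 scale (SE 0.07, adjusted p = 0.0234), but the call depended on the libraries and the tool. Adjusted p was 0.0977 and 0.0982 without OGD control replicate 2 or 3, 0.0845 and 0.0773 without OGD replicate 2 or 3, and 0.358 with DESeq2.

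Fos stood at 1350, 1263 and 1298 CPM in OGD. Its log2 fold change was 0.10 (SE 0.05, adjusted p = 0.109), although no OGD library was below an OGD control library. With only the 6 libraries of this experiment in the fit, Fos passed (adjusted p = 0.0137), as it did with no count filter (0.0351) and with total counts as library sizes (0.0130). Junb was at 446, 423 and 454 CPM in OGD, which overlapped its control libraries at 435 to 473 CPM. The Junb difference was -0.03 on the log2 scale (SE 0.06, adjusted p = 0.724). For Fosl1, OGD held 34, 34 and 44 reads and OGD control 28, 27 and 39, a ratio of 1.01 (exact 95% interval 0.759 to 1.34).

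**Figure D2:**
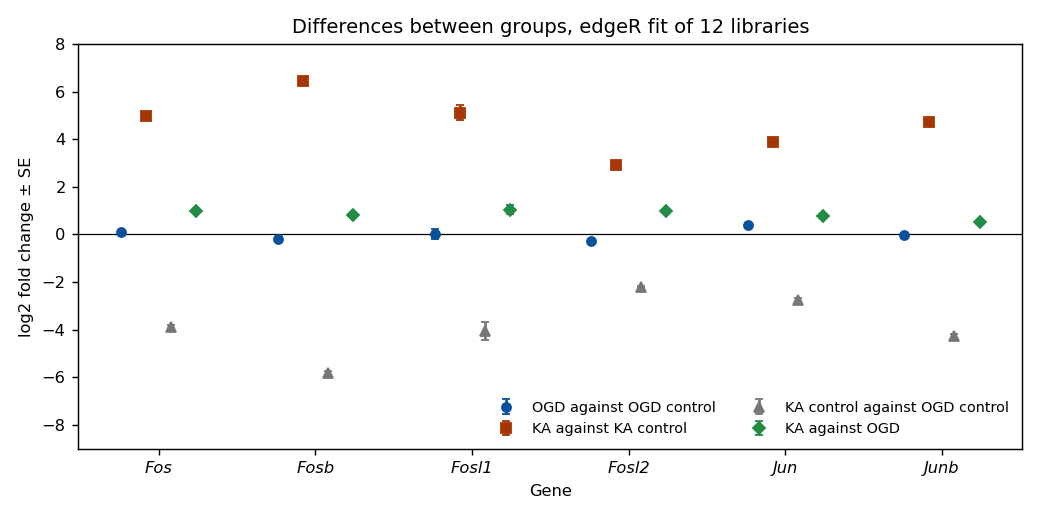
Log2 fold changes with their SE (bars) for the 6 counted genes in 4 comparisons from one edgeR fit of 12 libraries. The OGD values lie between -0.29 and 0.39, the KA values between 2.94 and 6.45, and the values of KA control against OGD control between -5.82 and -2.22.

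The response to KA exceeded the response to OGD for all 6 genes tested. In the test of the difference itself, the KA response minus the OGD response was 6.65 for Fosb (SE 0.12, adjusted p = 1.10e-27), 5.10 for Fosl1 (SE 0.42) and 4.86 for Fos (SE 0.08). It was 4.77 for Junb (SE 0.09), 3.51 for Jun (SE 0.10) and 3.22 for Fosl2 (SE 0.06). Across all genes, 33.8% were called higher in this difference and 34.4% lower. The difference of responses is the difference between the treated groups less that between the controls, and the controls made up most of it. For Fos, the treated groups differed by 0.98 and the controls by -3.88 on the log2 scale.

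KA libraries were also higher than OGD libraries for each of the 6 genes, by 0.51 to 1.04 on the log2 scale, in a comparison added after the data had been seen. Among all genes, 32.6% were called higher in KA than in OGD and 31.5% lower. Fosl2 was 2.01-fold higher in KA (adjusted p = 4.34e-19) and Fos 1.98-fold (adjusted p = 1.40e-16). Fosb was 1.78-fold higher, Jun 1.72-fold and Junb 1.42-fold. The pooled Fosl1 ratio was 2.07 (exact 95% interval 1.63 to 2.65). Treatment and experiment cannot be told apart here.

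The mix of subunits differed most in KA control. Levels were set per kilobase with the longest GENCODE transcript matched to a curated RefSeq entry, from 1809 bases for Junb to 6537 for Fosl2. Fosl2 then made up 47.6% ± 2.23 (SD, n = 3) of the summed CPM per kb in KA control, against 21.1% ± 0.07 in OGD control, 17.4% ± 0.73 in OGD and 19.0% ± 0.76 in KA. Fos made up 28.4% ± 1.01 in KA control, 39.9% ± 0.59 in OGD control, 43.1% ± 0.77 in OGD and 46.4% ± 0.63 in KA. Fosb made up 2.54% ± 0.54 in KA control and between 11.9% and 14.0% in the other groups. In raw counts, the family took 0.0624% to 0.0692% of all reads in KA control libraries, 0.445% to 0.478% in the OGD experiment and 0.763% to 0.819% in KA.

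Ratios of counts within a library, in which library size cancels, show the same shift without reference to other genes. The Fosb to Fos ratio was 0.126 to 0.181 in KA control and 0.438 to 0.480 in KA, and 0.597 to 0.656 in OGD control and 0.508 to 0.514 in OGD. Relative to Fos, Fosb was thus higher in KA than in KA control and lower in OGD than in OGD control, with no overlap between libraries in either case. The Junb to Jun ratio was 0.424 to 0.457 in KA control, 0.768 to 0.811 in KA, 1.21 to 1.30 in OGD control and 0.897 to 0.999 in OGD. The Fosl2 to Fos ratio went from 4.91 to 5.69 in KA control down to 1.23 to 1.31 in KA, and from 1.60 to 1.65 in OGD control down to 1.19 to 1.32 in OGD. The Jun to Fos ratio was 0.606 to 0.683 in KA control and 0.293 to 0.333 in KA, and 0.281 to 0.302 in OGD control and 0.330 to 0.390 in OGD. These ratios are a description, and their differences between groups were not tested.

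**Figure D3:**
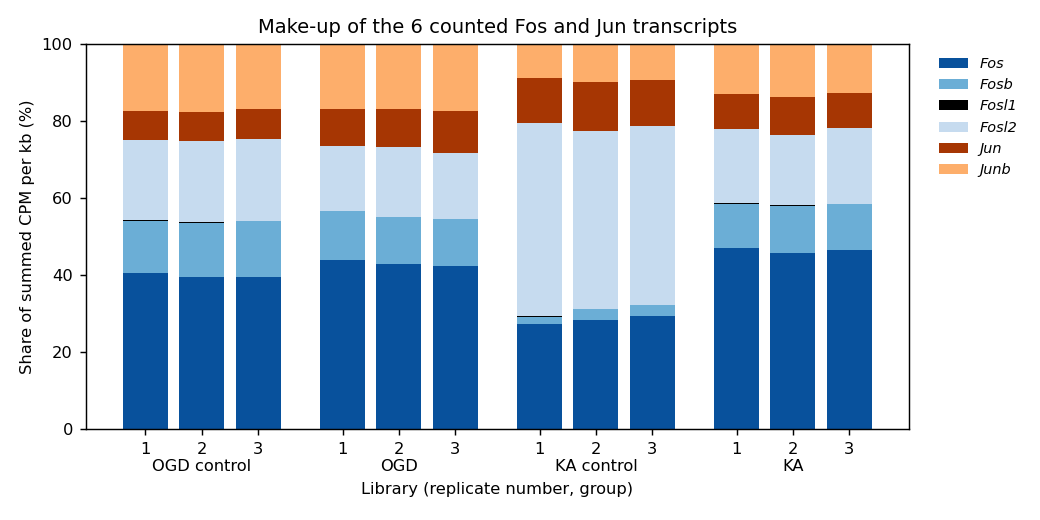
Share of each subunit gene (stacked bars, %) in the summed CPM per kb of the 6 counted genes, for each of the 12 libraries. Fosl2 takes 47.6% on average in KA control and between 17.4% and 21.1% in the other 3 groups.

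Per kilobase, Fos was the highest of the family in 3 of the groups, at 576 CPM per kb in OGD control, 619 in OGD and 1223 in KA. It was followed in OGD control by Fosl2 (304), Junb (249), Fosb (202) and Jun (111), with no overlap between neighbours. In OGD, Fosl2 and Junb overlapped (249 and 244 CPM per kb), and in KA Junb and Fosb did (347 and 313). In KA control the order was Fosl2 (65.4), Fos (39.1), Jun (16.7), Junb (12.9) and Fosb (3.53). Fosl1 was last in every group, at no more than 2.26 CPM per kb. With all annotated exonic bases as the length, Junb came before Fosl2 in OGD (192 and 168), and Jun came before Fosb in OGD (145 and 107) and in KA (250 and 190). These ranks and the shares above take the reads of each gene to be counted equally well, which was not tested.

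Jund, known for broad and steady expression, was listed at 0 reads in all 12 libraries, so it was not tested. Only if reads of Jund could be counted would 0 allow up to 3 reads, or 0.129 to 0.249 CPM depending on the library, for counting error. The gene lies on chromosome 8 at 70698949 to 70700616 (mm10), has 1 GENCODE transcript and 2 curated RefSeq transcripts, and shares 877 of its 1668 exonic bases with the antisense gene Gm11175. What set its counts to 0 was not tested, and the 0 says nothing of its expression. Every share above therefore leaves Jund out.

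Genes around AP-1 were described from 5 lists, beside 35.2% of all genes called higher and 37.6% lower after KA. Described AP-1 target genes were higher in 14 of 18 tested cases and lower in 2, with a median log2 fold change of 0.95 beside -0.02 over all genes. Dusp1, a MAP kinase phosphatase, rose from 21.9 ± 1.29 to 311 ± 21.8 CPM (SD, n = 3). Vgf, a secreted neuropeptide precursor, rose from 229 ± 6.66 to 1665 ± 135 CPM, and Plau, the urokinase gene, from 1.51 ± 0.41 to 15.3 ± 0.35 CPM. Another list held factors and coactivators of the SRE and CRE sites of the Fos promoter, and also Mef2 genes. Of its 17 tested genes, 12 were called higher and 3 lower (median 0.45). Srf, the serum response factor, went from 78.8 ± 1.47 to 320 ± 35.3 CPM, its partner Elk4 from 20.3 ± 0.29 to 62.1 ± 3.56 CPM and Mef2d from 91.6 ± 2.06 to 220 ± 17.9 CPM.

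Other bZIP factors that can pair with Fos or Jun proteins or share their sites rose in 7 of 11 cases after KA and fell in 2 (median 0.26). Atf3, a stress-induced partner of Jun, rose from 7.05 ± 0.47 to 192 ± 9.40 CPM, Maff from 7.95 ± 0.90 to 147 ± 21.1 CPM and Mafk from 15.1 ± 0.48 to 39.5 ± 3.30 CPM. Regulators of AP-1 mRNA and protein turnover rose in 8 of 15 cases and fell in 4 (median 0.23). Zfp36l2, which binds AU-rich elements, rose from 3.77 ± 0.56 to 28.0 ± 1.93 CPM, the COP1 adaptor Trib1 from 34.2 ± 0.68 to 88.7 ± 2.03 CPM, and Fbxw7, a ubiquitin ligase subunit that recognises Jun, from 12.7 ± 0.68 to 35.4 ± 1.67 CPM. MAP kinases and JNK scaffolds rose in 12 of 22 cases and fell in 5 (median 0.25). Map3k5, a kinase upstream of JNK, rose from 39.6 ± 1.24 to 90.8 ± 2.77 CPM and Rps6ka2 from 146 ± 5.27 to 235 ± 3.05 CPM, whereas Rps6ka5 fell from 37.0 ± 0.46 to 15.0 ± 1.19 CPM.

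After OGD, the same 5 lists are given beside 17.6% of all genes called higher and 20.5% lower. Among described AP-1 targets 8 of 18 were lower and 1 higher (median -0.27 beside 0.01 over all genes). Penk, the enkephalin precursor, fell from 102 ± 4.90 to 64.9 ± 7.50 CPM and Vgf from 1067 ± 22.9 to 887 ± 15.9 CPM, while Cdk5, a neuronal kinase, rose from 131 ± 0.69 to 154 ± 7.88 CPM. Among turnover regulators 6 of 15 were lower and 1 higher (median -0.23), and Elavl2, which binds AU-rich mRNA, fell by 0.45, Trib1 by 0.27 and Fbxw7 by 0.64 on the log2 scale. Among SRE and CRE factors 6 of 17 were lower and 2 higher (median -0.14). Srf rose from 175 ± 6.99 to 229 ± 15.3 CPM, while the coactivator Crebbp fell from 177 ± 6.76 to 133 ± 5.95 CPM and Mef2c from 71.2 ± 3.04 to 58.2 ± 2.16 CPM. Among MAP kinases and scaffolds 7 of 22 were lower and 3 higher (median -0.02): Map3k5 fell by 0.90 and Rps6ka3 by 0.43, and Mapk3 rose by 0.31. Among partner bZIP factors 2 of 11 were lower and 1 higher (median -0.04). Atf3 rose from 73.1 ± 2.02 to 99.5 ± 3.85 CPM, and Mafk and Nfe2l2 fell by 0.30 and 0.54 on the log2 scale.

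**Figure D4:**
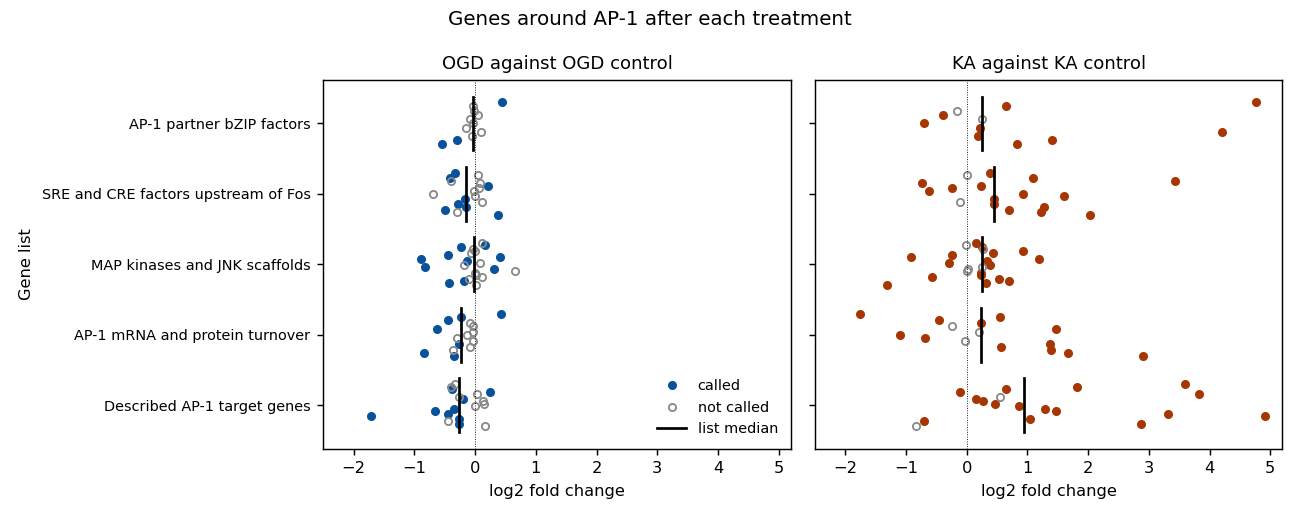
Log2 fold changes of the tested genes of 5 lists around AP-1 after OGD (left) and after KA (right), each against its own control. Filled points were called at adjusted p under 0.05 and black lines are list medians, from -0.27 to -0.02 after OGD and from 0.23 to 0.95 after KA.

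Between the untreated groups, the lists are given beside 34.5% of all genes called higher and 34.2% lower in KA control, with a median of 0.00348 over all genes. In KA control against OGD control, 12 of 18 AP-1 targets were lower and 1 higher (median -0.88), and 6 of 11 partner bZIP factors were lower (median -0.60). Among SRE and CRE factors 9 of 17 were lower and 3 higher (median -0.36), among MAP kinases and scaffolds 12 of 22 and 5 (median -0.20), and among turnover regulators 7 of 15 and 2 (median -0.15).

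The genes whose 4 group levels followed each subunit most closely were found among 9295 genes with a mean of at least 4 CPM. Likeness was the root mean square difference between the mean log2 CPM of the 4 groups, each gene centred on its own mean and a prior count of 2 added before the logarithm. Fosl2 was followed most closely by Vgf (0.04 on the log2 scale), Zhx2 (0.05) and Nfil3 (0.05). Fos was followed by Cyr61 (0.12), Egr2 (0.16) and Gadd45g (0.16), and Junb by Gadd45b (0.09), Ptgs2 (0.13) and Aldh8a1 (0.17). Jun was followed by Dusp1 (0.15), Ccno (0.16) and Dusp10 (0.18). The nearest to Fosl1 were Itprip (0.11), Nr4a1 (0.16) and Dusp16 (0.16), but with 7 reads in KA control its log2 level there rests largely on the prior count, and other values of it were not tried. Fosb had the most distant neighbours, Klf4 at 0.23, Gem at 0.55 and Gadd45g at 0.61.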

How the data were processed

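RNA from RNeasy columns went into TruSeq RNA v2 libraries, per the labels' protocols. The submitters' processing notes name HTSeq 0.6.1, TopHat 1.4.1, bcl2fastq 1.8.4 and build mm10. Their annotation and settings are not given in the sources used. The authors deposited raw counts per gene symbol for 22899 genes. The OGD columns are headed OGT and were matched to the OGD titles with that letter different.

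Counts were tested with edgeR 4.0.16 in R 4.3.3: filterByExpr (minimum count 10, total 15), TMM, and the quasi-likelihood test on 4 group means over 12 libraries (8 residual degrees of freedom), with Benjamini-Hochberg adjustment over all 13139 genes and a threshold of 0.05. The code was tested on simulated data. Alternatives included DESeq2 1.42.0. One count equals 0.0429 to 0.0832 CPM. CPM were computed from these counts with TMM-scaled library sizes. Each library counted once. Chi-square over degrees of freedom was 1.52 to 6.75 for replicate pairs, above sampling noise, which does not show that replicates were separate cultures. Members and lists were chosen with earlier results of these data known. Named were all 7 members, from each list the 3 called genes with the smallest adjusted p per treatment and a mean of at least 1 CPM, and the 3 nearest genes per member. Coordinates are from GENCODE M21, and promoters are from RefSeq (GRCm38.p6). A gene with no sequence entry was not searched elsewhere.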

Additional observations from a re-analysis of the deposited data

Results flagged for a closer look

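For each of the 6 counted subunit genes, the response to KA and the response to OGD differed in the test of the difference itself (KA response minus OGD response, edgeR quasi-likelihood test). The differences were 4.86 for Fos (adjusted p = 4.31e-29), 6.65 for Fosb (adjusted p = 1.10e-27), 5.10 for Fosl1 (adjusted p = 6.08e-12), 3.22 for Fosl2 (adjusted p = 1.10e-27), 3.51 for Jun (adjusted p = 1.60e-23) and 4.77 for Junb (adjusted p = 2.83e-27) on the log2 scale. Each treatment has its own controls, which themselves differed by -2.22 to -5.82 for these genes, and the treated groups differed by 0.51 to 1.04.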

How the results depend on the processing

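All 6 counted subunit genes kept their call and direction in KA against KA control, KA control against OGD control, the difference of responses and KA against OGD under each alternative run. In OGD against OGD control between 2 and 4 of the 6 were called, against 3 in the results above. Leaving out 1 library gave 2 or 3, with Fosb between -0.25 and -0.17 on the log2 scale (adjusted p from 0.0128 to 0.0982). With total counts as library sizes Fosb had adjusted p = 0.0812. Of 420 results recomputed, 411 kept their side of the threshold, 3 (Fos after OGD) passed it and 6 (Fosb after OGD) lost it; the cause was not tested. With DESeq2 size factors, the edgeR test called 2269 genes higher and 2740 lower after OGD. With total counts as library sizes and no TMM factors, the median log2 fold change of all genes moved by -0.26 after KA, -0.31 in the difference of responses, 0.19 between controls and -0.12 in KA against OGD. The split of higher and lower calls then became 3165 and 6739 after KA (4622 and 4936 with TMM) and 3130 and 2255 after OGD (2315 and 2694). It became 2971 and 6396 for the difference (4441 and 4516), 6155 and 3132 between controls (4532 and 4490) and 3365 and 5230 for KA against OGD (4278 and 4138). Libraries with the same replicate number did not deviate together (correlations from -0.092 to 0.046, and 3 of 12 libraries correlated best with their own number). With the replicate block, 3 of the 6 genes were called after OGD and 6 in each other comparison, with 4779 genes called after OGD and 9468 after KA. Depth limits the precision of Fosl1, at 7 reads in KA control.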
